A study of Eublepharis macularius with 8 samples.

Results

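Type I collagen and the genes that process its precursor were followed through functional and developing teeth of the leopard gecko (Eublepharis macularius), whose teeth are shed and replaced in adults too. The 10 genes, taken by exact symbol from a table of 22488 gene names, were the chains COL1A1 and COL1A2, the C-propeptide proteases BMP1 and TLL1, the N-propeptide proteases ADAMTS2 and ADAMTS14, the protease enhancers PCOLCE and PCOLCE2, the procollagen chaperone SERPINH1 and the cross-linking enzyme LOX. All 10 were found, and all 10 passed the filter on low counts. The animals were adults, with no genotype, strain, age or treatment named in the labels. Each group held 4 libraries: female teeth, 3 to a sample, gave replicates 1 to 3, and male teeth gave replicate 4, with 10 functional or 11 developing teeth in the sample. Teeth were pooled within a sample. The titles call the libraries of a group biological replicates; the male sample came from other animals than the female samples, but which animals gave replicates 1 to 3 is not stated. The p-values therefore reflect only how these samples spread, which may in part be technical.

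Type I collagen is the main protein of dentin and bone and is built as a triple helix of a pair of α1 chains and a single α2 chain. The chains are made as procollagen with a propeptide at each end. Inside the endoplasmic reticulum the heat shock protein HSP47, encoded by SERPINH1, binds the folded helix. Outside the cell, ADAMTS proteases remove the N-propeptide, and BMP1 and its tolloid relatives, aided by procollagen C-endopeptidase enhancers, remove the C-propeptide. Lysyl oxidase, encoded by LOX, then oxidizes lysines of the assembled fibrils, which cross-link them. In a tooth these steps belong above all to odontoblasts, the cells that lay down dentin.

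Libraries held between 14144573 and 30935120 estimated counts. Values are given in CPM, counts scaled to a common library size, with library sizes adjusted by the trimmed mean of M-values (TMM), which corrects for a few very abundant genes. The scaling factors were 0.7515 to 0.8537 in functional and 1.105 to 1.386 in developing libraries. The developing libraries fell apart in collagen content before any test: COL1A1 and COL1A2 together made up 20.6% and 18.6% of the counts in developing replicates 1 and 2 and 5.74% and 4.37% in replicates 3 and 4, against 29.2% to 33.2% in functional libraries. The RNA integrity number in the labels was 9.4, 9.6, 9.2 and 8.8 in developing replicates 1 to 4 and 9.5, 9.2, 9.6 and 9.1 in functional replicates 1 to 4, and developing replicate 3 had the smallest total count of the 8. The same libraries differed in marker genes of tooth cells. Summed levels of the odontoblast markers DSPP, DMP1, PHEX and FAM20C were 9135, 7153, 2319 and 3043 CPM in developing replicates 1 to 4 and 9849 to 12757 CPM in functional libraries. Summed levels of 5 ameloblast markers (AMELX, AMBN, ENAM, AMTN and MMP20, genes of the enamel-forming cells) ran the other way, at 5079, 9048, 20967 and 33117 CPM in developing replicates 1 to 4 and 39.7 to 1204 CPM in functional libraries. None of these 4 odontoblast and 5 ameloblast markers was called, and ODAM, also listed for ameloblasts, was not found by name. Summed levels of 7 osteoblast and cementoblast markers, which bone-lining cells and the cells of the root surface share in part with odontoblasts, were 8278, 13253, 1321 and 1022 CPM in developing replicates 1 to 4 and 23451 to 30055 CPM in functional libraries, and 2 of the 7 were called higher and 1 lower in functional teeth. The 6 markers of macrophages and the osteoclast lineage summed to 129 to 306 CPM in developing and 383 to 1896 CPM in functional libraries, with 2 called higher. No marker of these 4 lists was at 0 in any library. Fibroblast markers of pulp and ligament (8 genes, none called) summed to 2791 to 8860.1 CPM in developing and 6741 to 10844 CPM in functional libraries. None of the markers tested was called for endothelium (5 tested), oral epithelium (3 of 6 listed), skeletal muscle (1 of 4) or red cells (1 of 4). Lists with so few genes tested say little, and the odontoblast and ameloblast lists, with 4 and 5 genes tested, are short too. The muscle markers summed to 60.3 CPM in developing replicate 3, against 1.8 to 8.42 CPM in the other developing and 1.35 to 1.91 CPM in functional libraries. What part these cell types or the RNA quality had in the results below was not tested, and in whole teeth fewer cells of a type and less RNA per cell cannot be told apart.

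Of the 10 genes, 9 had a higher estimate in functional teeth and TLL1 had a lower one. ADAMTS14 rose and TLL1 fell past the threshold, an adjusted p under 0.05 in edgeR's quasi-likelihood test with Benjamini-Hochberg adjustment over 15491 genes. The share of all tested genes called was 2.81%, with 0.8% higher and 2.01% lower in functional teeth. The median log2 fold change, functional minus developing, was 1.39 over the 10 genes and 0.00 over all genes tested (7775 of them, 50.2%, above 0). In 7 genes every functional library exceeded every developing library and in TLL1 every one was lower. Such separation was seen in 15% of all tested genes, 6.42% with functional higher and 8.6% with it lower. The 10 genes were chosen with earlier results of these data known, so these comparisons with all genes are descriptions. DESeq2's Wald test called 7 of the 10, with COL1A1, COL1A2, BMP1, PCOLCE and LOX added as higher, and it called 1680 of all genes (10.8%; 4.65% as higher) where edgeR called 436. A block for replicate number left the same pair of genes called, and 220 of all genes. Neither gene was called among the 6 female libraries alone, where 3 of all genes were. The same held without functional replicate 2, 3 or 4, where 16, 12 and 8 of all genes were called, respectively. ADAMTS14 was not called without developing replicate 4, where 53 of all genes were.

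**Figure D1:**
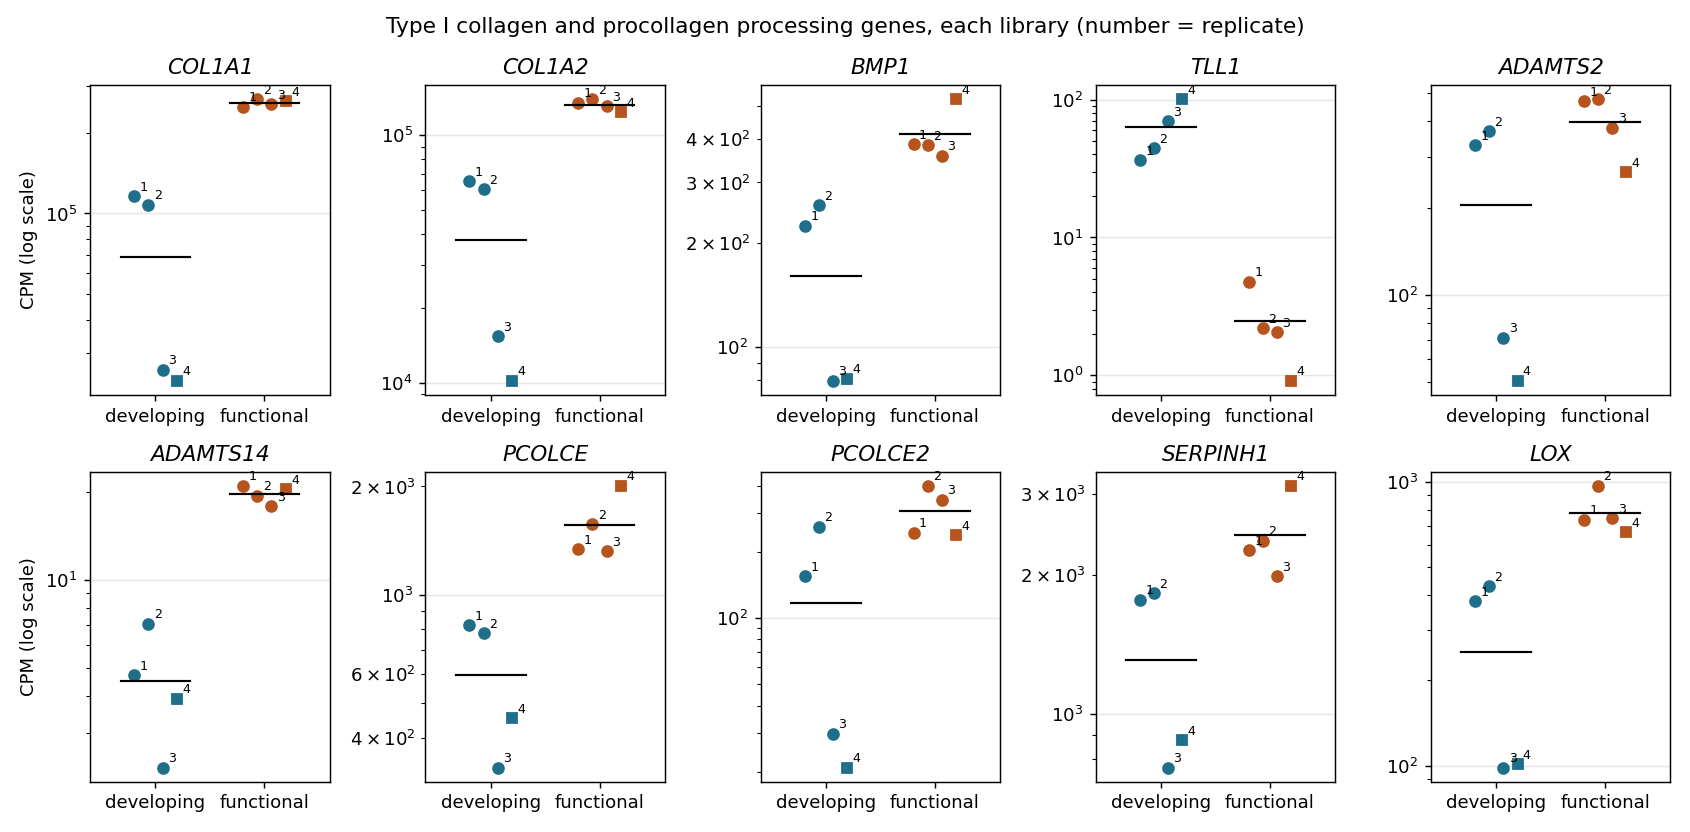
Level of each of the 10 genes in every library, in CPM on a log axis that differs between panels. Points are libraries numbered by replicate (circles female, squares male) and lines are group means. TLL1 is the gene whose 4 functional libraries lie below all developing libraries, and in the other 9 panels developing replicates 3 and 4 are the lowest 2 of the 8 libraries.

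COL1A1 had the highest count of any gene (rank 1) in all 8 libraries. Both collagen chains averaged more in functional teeth without passing the test. COL1A1, which encodes the α1 chain, held 251449.7, 268686, 257532 and 263769.9 CPM in functional replicates 1 to 4 and 116225, 107996, 25971 and 23583 CPM in developing replicates 1 to 4. The functional libraries were close to one another, with a coefficient of variation (SD over mean) of 2.88%, while it was 73.8% among developing libraries, and the groups did not overlap. The log2 fold change was 1.93 ± 0.65 (SE; 3.8-fold, adjusted p = 0.139 in edgeR; over 16 alternative settings the adjusted p ran from 0.00442 to 0.395). COL1A2, which encodes the α2 chain, followed the same pattern, with 124407 to 140397 CPM in functional libraries and 65159.6, 60524, 15418 and 10169.7 CPM in developing replicates 1 to 4. Its log2 fold change was 1.81 ± 0.64 (adjusted p = 0.155). By replicate number the COL1A1 difference was 1.11, 1.31, 3.31 and 3.48 on the log2 scale for numbers 1 to 4, so that, with functional libraries nearly equal, the size of the difference followed the developing library.

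Among developing libraries, where the levels of COL1A1 and COL1A2 ran over a 4.93-fold and a 6.41-fold range, the count ratio of the chains had a narrower range. Among functional libraries the levels themselves lay within 1.07-fold and 1.13-fold. There were 1.85, 1.91, 1.96 and 2.12 counts of COL1A1 per count of COL1A2 in functional replicates 1 to 4, and 1.78, 1.78, 1.68 and 2.32 in developing replicates 1 to 4. Counts were not divided by transcript length, so such ratios can be compared between libraries but do not give the ratio of molecules. The mean log2 ratio (± SD, n = 4) came to 0.97 ± 0.08 for functional and 0.91 ± 0.21 for developing teeth, a difference within the spread of the libraries (exact two-sided permutation test, p = 0.6, adjusted over 8 ratios 0.6). Both male libraries had a higher ratio than every female library, with 1 male library in each group.

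Of the tolloid proteases, TLL1 fell and BMP1 did not pass the test. TLL1, tolloid-like 1, a protease of the same family as BMP1 that can also cleave the C-propeptide, held 36.2, 44.3, 70 and 101 CPM in developing replicates 1 to 4 and 4.79, 2.19, 2.06 and 0.912 CPM in functional replicates 1 to 4. The lowest developing library was thus several times above the highest functional library. TLL1 fell by 4.67 ± 0.55 on the log2 scale (25.5-fold lower, adjusted p = 0.0159), the 21st smallest p of all genes tested. By replicate number the log2 difference was -2.89, -4.28, -5.02 and -6.66. Across 16 alternatives the estimate stayed between -5.27 and -4.07, with adjusted p from 3.17e-16 to 0.0763. Leaving out functional replicate 2, 3 or 4 moved the adjusted p to 0.0763, 0.0749 or 0.0611 respectively, and the female libraries alone gave 0.0712. Developing libraries ranked in the same order for TLL1 and for the summed ameloblast markers, and the functional library with the most TLL1, replicate 1, was also the one with the most of those markers (1204 CPM, against 39.7 to 120.5 CPM in the other functional libraries). Functional replicates 2 and 3 ranked in opposite orders, with 96.4 and 120.5 CPM of the markers. No ameloblast marker was called, and a link between TLL1 and these cells was not tested.

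BMP1, the main procollagen C-proteinase, held 387, 385, 359 and 524 CPM in functional replicates 1 to 4 and 225, 258, 79.7 and 80.8 CPM in developing replicates 1 to 4. The groups did not overlap, and the male functional library was the highest of all. The log2 fold change of 1.36 ± 0.41 did not pass (adjusted p = 0.112). Per 1000 counts of BMP1 there were 161, 172, 879 and 1251 counts of TLL1 in developing replicates 1 to 4, and 12.5, 5.73, 5.82 and 1.78 in functional replicates 1 to 4. The groups did not overlap in this ratio, whose log2 value differed by -6.32 (functional minus developing; exact two-sided permutation test, p = 0.0286, the smallest that 70 divisions of 8 libraries allow; adjusted over 8 ratios 0.114). The ratio held TLL1, whose fall was known beforehand.

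Both C-proteinase enhancers averaged more in functional teeth, and neither passed the test. PCOLCE, a secreted glycoprotein that binds the C-propeptide and speeds its removal, held 1336, 1569.6, 1320.2 and 2009 CPM in functional replicates 1 to 4 and 821, 781, 329.9 and 453 CPM in developing replicates 1 to 4. The groups did not overlap, and PCOLCE came closest of the other 8 genes to the threshold (log2 fold change 1.39 ± 0.31, adjusted p = 0.0575; 0.0248 on library totals without TMM and 0.000783 in DESeq2, and 0.000783 to 0.219 over 16 alternatives). PCOLCE2, its close relative with the same activity, overlapped between groups: functional replicates 1 to 4 held 245, 400.5, 346 and 239 CPM and developing replicates 1 to 4 held 155, 261, 29.8 and 20.9 CPM. Developing replicate 2 was above functional replicates 1 and 4. Among developing libraries PCOLCE2 had the widest range of the 10 genes, 12.5-fold from lowest to highest, and its log2 fold change of 1.40 ± 0.74 did not pass (adjusted p = 0.305). By replicate number the difference was 0.66, 0.62, 3.53 and 3.51, and the replicate block gave 2.08 (unadjusted p = 0.0254, adjusted p = 0.143 in edgeR). The log2 ratio of PCOLCE2 to PCOLCE differed by 0.62 between groups (exact permutation test, p = 0.4, adjusted 0.457), by 0.13 without developing replicate 4 and by 1.08 without developing replicate 2.

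Of the N-proteinases, ADAMTS14 rose and ADAMTS2 did not pass. ADAMTS14 held 21, 19.4, 17.9 and 20.4 CPM in functional replicates 1 to 4 and 4.71, 7.08, 2.28 and 3.92 CPM in developing replicates 1 to 4. The functional libraries lay within 1.17-fold of each other, and the lowest of them was well above the highest developing library. The log2 fold change was 2.13 ± 0.31 (4.36-fold, adjusted p = 0.0251 in edgeR). By replicate number the difference was 2.13, 1.44, 2.92 and 2.35, positive in all 4, which follows from the groups not overlapping. Leaving out functional replicate 2, 3 or 4 moved the adjusted p to 0.0818, 0.0768 or 0.0641 respectively, with 0.0612 when developing replicate 4 was dropped and 0.107 for female libraries, within a range of 1.17e-08 to 0.107 over 16 alternatives.

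ADAMTS2, the best known N-proteinase of type I procollagen, whose loss causes the fragile skin of dermatosparactic Ehlers-Danlos syndrome in humans, held 467, 476, 379 and 266 CPM in functional replicates 1 to 4. In developing replicates 1 to 4 it held 329, 369, 71.1 and 50.4 CPM. Functional replicate 4 was below developing replicates 1 and 2, so the groups overlapped (log2 fold change 0.95 ± 0.62, adjusted p = 0.4). By replicate number ADAMTS2 was higher in functional teeth in 4 of 4, with log2 differences of 0.50, 0.37, 2.41 and 2.40 (17.4% of all genes were higher in all 4). With the replicate block its log2 fold change was 1.42 (unadjusted p = 0.0225, adjusted p = 0.136 in edgeR). There were 45, 40.8, 47.2 and 76.9 counts of ADAMTS14 per 1000 counts of ADAMTS2 in functional replicates 1 to 4 and 14.4, 19.3, 32.4 and 78.2 in developing replicates 1 to 4. The male libraries had the highest ratio in each group, and the log2 ratio differed by 0.81 (exact permutation test, p = 0.229, adjusted 0.305). It differed by 0.48 without developing replicate 1 and by 1.29 without developing replicate 4, where the groups did not overlap (exact p = 0.0286, adjusted 0.0762). Among the female libraries the groups did not overlap in this ratio, where the difference was 1.09 and 3 against 3 libraries allow no p below 0.1, the value found.

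SERPINH1, the collagen-specific chaperone, held 2268, 2377, 1989 and 3124 CPM in functional replicates 1 to 4 and 1771, 1828, 766 and 878 CPM in developing replicates 1 to 4. The groups did not overlap, but they came close, and the log2 fold change of 0.90 ± 0.32 was the smallest of the 10 genes (adjusted p = 0.161). LOX held 738, 971, 745 and 666 CPM in functional replicates 1 to 4 and 381, 429.7, 98.4 and 101 CPM in developing replicates 1 to 4, without overlap (1.63 ± 0.51, adjusted p = 0.121).

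Set against the collagen counts of the same library, the count of the chaperone gave a ratio that did not overlap between the groups. Per 1000 counts of COL1A1 and COL1A2 together there were 5.85, 5.81, 5.12 and 8.05 counts of SERPINH1 in functional replicates 1 to 4 and 9.76, 10.8, 18.5 and 26 in developing replicates 1 to 4. Because collagen is the denominator, a gene at one constant CPM level in all 8 libraries would differ by -2.28 on the log2 scale in such a ratio. The log2 ratio differed by -1.30, which is 2.46-fold (exact two-sided permutation test, p = 0.0286, the smallest possible; adjusted over 8 ratios 0.114). LOX differed less, with 1.71 to 2.37 counts per 1000 in functional and 2.1 to 2.98 in developing libraries (log2 difference -0.34, p = 0.0571, adjusted 0.114 in the same exact test). For BMP1 the difference was -0.73 (exact p = 0.0571, adjusted 0.114), and for PCOLCE it was -0.82 (exact p = 0.0857, adjusted 0.137). All 4 of these ratios were lower in functional teeth in 4 of 4 replicate numbers. Both collagen chains, their shared denominator, were higher in functional teeth in all 4 numbers. The 4 counts are therefore not separate observations, and any gene that rose less than collagen in every replicate number would give the same. None of the 8 ratios passed after adjustment, also when the numbers were taken as pairs, where an exact sign-flip test of 4 differences allows no p below 0.125. These ratios do not depend on library scaling, but the collagen count is the denominator of 4 of them, so those 4 share its variation.

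**Figure D2:**
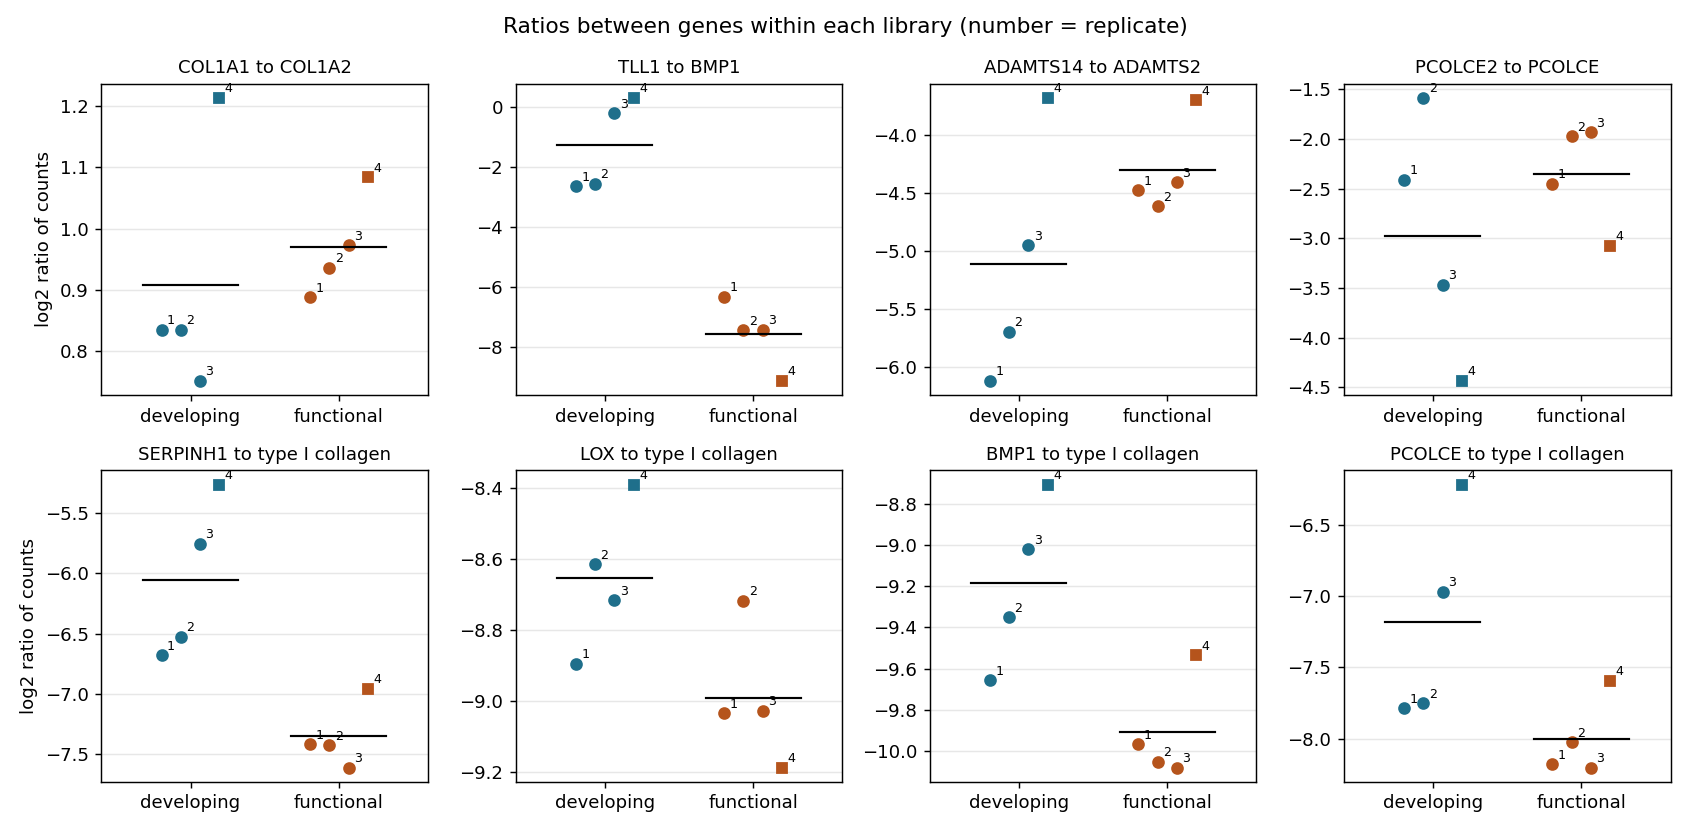
Log2 ratio of counts between genes within each library (circles female, squares male, numbered by replicate; lines are group means; axes differ between panels and do not start at 0). Type I collagen is COL1A1 plus COL1A2. TLL1 to BMP1 and SERPINH1 to type I collagen are the ratios in which the groups do not overlap.

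The difference between tissues was larger in the male than in the female libraries in all 10 genes, by the difference of mean log2 CPM, as in 72.4% of all tested genes by size. For COL1A1 it was 3.48 in the male pair and 1.91 among females, for TLL1 -6.66 and -4.07, and for ADAMTS14 2.35 and 2.17. The female value is a mean over 3 libraries per tissue, and the male value comes from a single pair. The female libraries numbered 3 alone differed by 3.31 in COL1A1. Their difference exceeded that of the male pair in ADAMTS14 (2.92 against 2.35) and LOX (2.92 against 2.73). It was slightly larger in ADAMTS2 (2.41 against 2.40) and PCOLCE2 (3.53 against 3.51), and smaller in size in the remaining genes. In edgeR's test of the interaction of tissue and sex, no gene of the 10 passed, and 0 of all 15491 genes did (515 had an unadjusted p under 0.05). TLL1 had the smallest interaction p of the 10 (log2 -2.72 ± 0.85, unadjusted p = 0.0162, adjusted p = 0.937), the only 1 of the 10 with an unadjusted p under 0.05. With 1 male library per tissue the spread in this test came from the female libraries alone, so these p-values say little. The male pair differed from the female samples in teeth per sample as well. Sex, sample make-up and anything else particular to that pair, such as its handling, cannot be told apart.

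A further 41 genes of procollagen maturation were listed, covering prolyl and lysyl hydroxylases, folding catalysts, secretory exit, other propeptidases and cross-linking enzymes. Of these, 36 were found and 35 tested (WNT1 did not pass the filter, and P3H4, COLGALT1, COLGALT2, HSPA5 and TLL2 were not analysed here). None passed edgeR's test over all genes. Counting unadjusted p-values under 0.05, 10 genes were higher and 0 lower, beside 9.53% and 12.8% of all genes. DESeq2's Wald test called 5, all higher (P3H2, PDIA3, ADAMTS3, LOXL4 and SPARC). The estimate was above 0 in 29 of 35 genes and its median on the log2 scale was 0.46, beside 50.2% of all genes above 0 and a median of 0.00. In 8 of the 35 all functional libraries lay above all developing ones, beside 6.42% of all genes. This list too was chosen with earlier results of these data known, so these comparisons are descriptions. The share of all genes called by DESeq2 was 10.8% in either direction and 4.65% as higher in functional teeth.

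The smallest p-values of that list belonged to PDIA3, ADAMTS3, LOXL4 and P3H2. PDIA3, a disulfide isomerase of the endoplasmic reticulum, held 981 to 1393 CPM in functional and 459 to 823 CPM in developing libraries (log2 fold change 0.96 ± 0.23, adjusted p = 0.062). ADAMTS3, the procollagen N-proteinase best known for cleaving type II procollagen, held 2.2 to 3.92 and 0.518 to 1.84 CPM (1.68 ± 0.41, adjusted p = 0.0689). LOXL4, a relative of lysyl oxidase, held 726 to 1079 and 87.3 to 391 CPM (1.98 ± 0.50, adjusted p = 0.0749). P3H2, a prolyl 3-hydroxylase, held 70.8 to 91.2 and 38.4 to 59.8 CPM (0.66 ± 0.18, adjusted p = 0.0844). In each of the 4 the groups did not overlap.

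**Figure D3:**
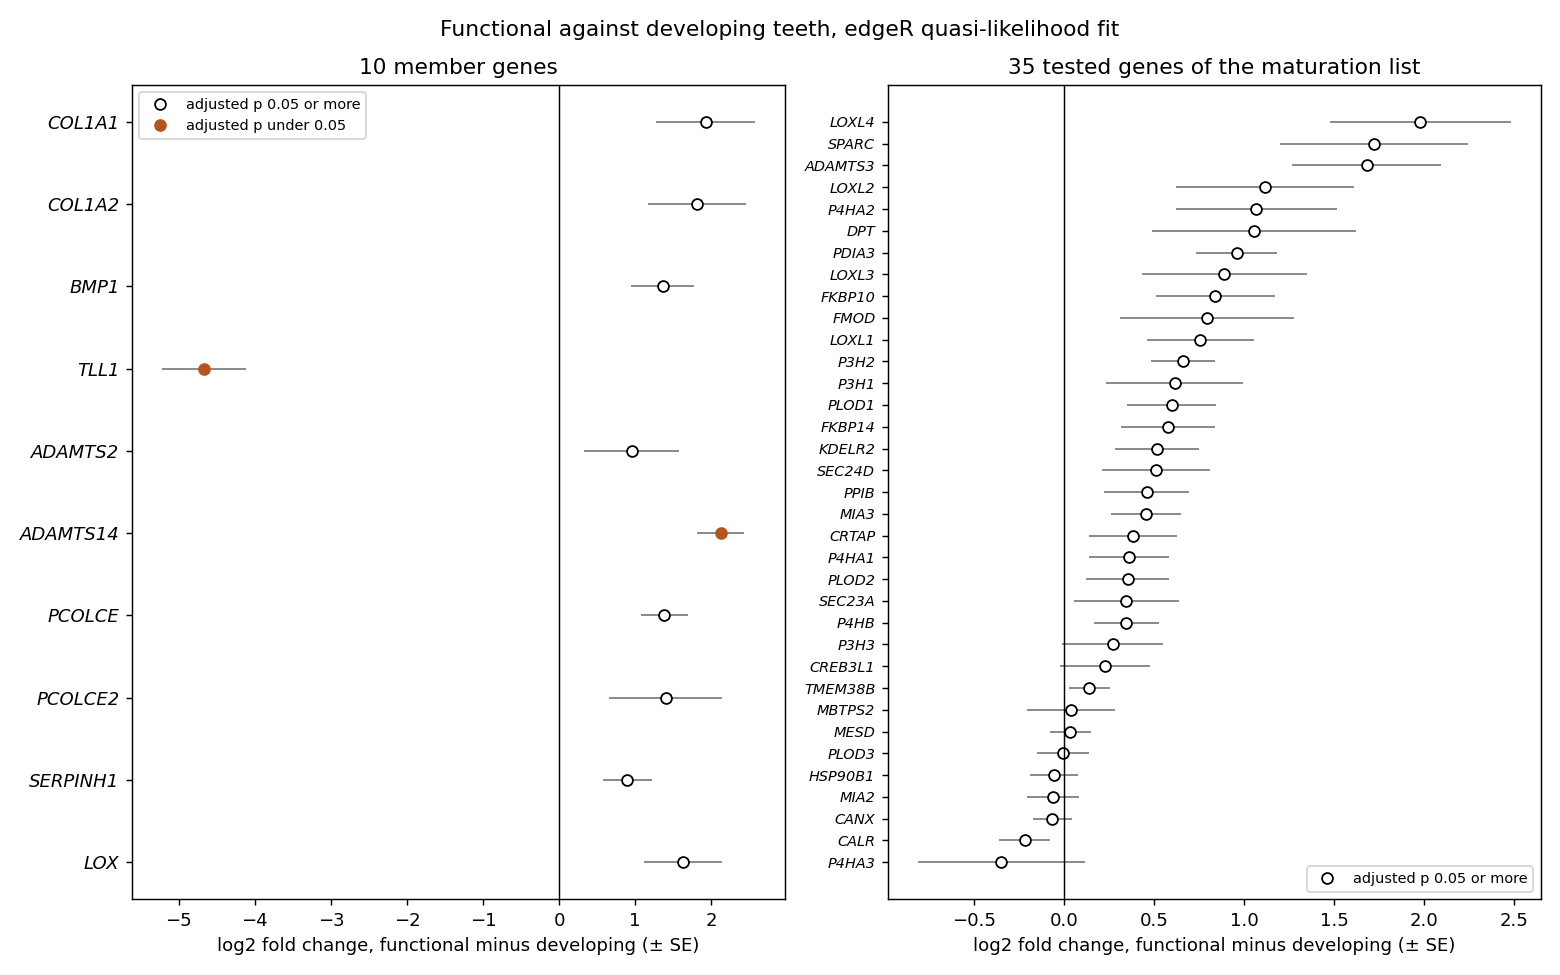
Log2 fold change, functional minus developing, with its standard error from edgeR's fit, for the 10 genes (left) and the 35 tested genes of procollagen maturation (right); the axes differ. Filled points have an adjusted p under 0.05: TLL1 at -4.67 and ADAMTS14 at 2.13. On the right 29 of 35 points lie above 0 and none is filled.

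Among all tested genes, the pattern of COL1A1 over the 8 libraries was most like that of COL1A2, with a root mean square difference of 0.14 between log2 CPM values centred on each gene's mean. LOX ranked 5th of 15490 by this measure, PCOLCE2 36th, BMP1 44th, ADAMTS14 70th, ADAMTS2 74th, PCOLCE 125th and SERPINH1 320th. Outside the 10 genes and the identifiers without a name, the closest were COL5A1 (0.145), a chain of the fibril-regulating type V collagen, the collagen-binding integrin gene ITGA10 (0.189), LOXL4 (0.242), the fibril-associated collagen gene COL12A1 (0.27) and SPARC (0.282), which encodes the collagen-binding protein osteonectin. The mean of COL5A1 was 7115 CPM over functional and 2058 CPM over developing libraries, and that of SPARC was 41814 and 12675 CPM. Neither passed the test (adjusted p = 0.109 and 0.112 in edgeR).

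Among the genes closest to TLL1 were SRCIN1 (0.429), the peptide-processing carboxypeptidase gene CPE (0.457), the secreted carbonic anhydrase gene CA6 (0.482) and SMCO1 (0.515). The mean of CA6 was 26.7 CPM over developing and 1.5 CPM over functional libraries (log2 fold change -4.18, adjusted p = 0.0403 in edgeR). ADAMTS14 was closest, of the remaining genes, to the transcription factor gene FOXC1 (0.334), the calcium-binding protein gene S100A5 (0.336) and the growth factor gene TGFB1 (0.357). CDC42EP1 (0.37) and the aquaporin gene AQP11 (0.374) came next. The mean of TGFB1 was 428 CPM over functional and 158 CPM over developing libraries (log2 fold change 1.44, adjusted p = 0.046 in edgeR). These distances are descriptions over 8 libraries of 2 tissues and include the difference between tissues.

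**Figure D4:**
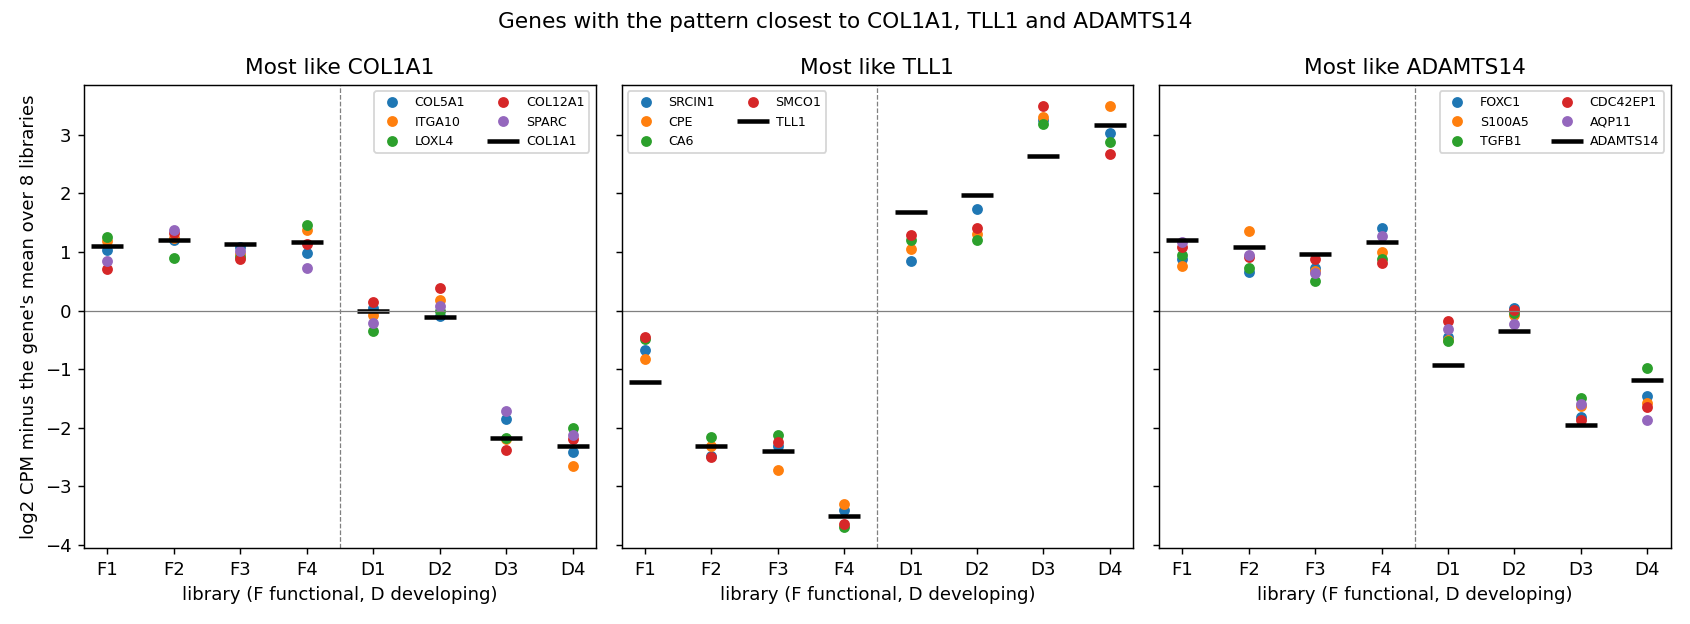
Log2 CPM minus each gene's mean over the 8 libraries (F functional, D developing, with the replicate number), for COL1A1, TLL1 and ADAMTS14 (black bars) and named genes closest to each (points; 5 for COL1A1 and ADAMTS14, 4 for TLL1). In the COL1A1 panel all 6 genes lie higher in D1 and D2 than in D3 and D4, while in the TLL1 panel the order of these libraries is the reverse.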

How the data were processed

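The authors deposited estimated counts for each gene in 8 libraries, not normalized, made with kallisto per the submitters' processing notes. Libraries came from a stranded mRNA kit read as paired ends of 59 bases, per the labels' protocols. The sources used here do not give the kallisto version, strand setting, build or annotation, so no coordinates are printed. All values were rounded (34.2% had decimals). Names were matched to symbols of the RefSeq table of MPM_Emac_v1.0; the 81 of 22488 unmatched names (0.9094% to 1.406% of counts) were left out of totals and tests. No sequences or transcript lengths were used. Kallisto divides reads between similar transcripts, so close paralogs are uncertain.

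Genes passing filterByExpr of edgeR 4.0.16 (R 4.3.3), 15491 in all, were tested by the quasi-likelihood test with TMM and no covariate, with Benjamini-Hochberg adjustment at 0.05. DESeq2 1.42.0 was an alternative, with other scalings, no filter, sex as a covariate, the replicate block, female libraries alone and each library left out. SE is the log2 fold change over the square root of F. Log2 CPM had a prior count of 2. Ratios had 0.5 added to each count. Named were the 10 genes, the maturation genes called plus the 4 of smallest p, and the 5 genes nearest to COL1A1, TLL1 and ADAMTS14. The nearest genes were taken outside the 10 genes and the identifiers without a name. A gene that this rule names is not reported here. Members and lists were chosen with earlier results of these data known. Scripts were tested on simulated data, where edgeR's test recovered 2 of 50 genes changed 2-fold and 41 of 50 changed 4-fold. In the simulation the libraries of a group shared the same expected level of each gene, without the division seen among developing libraries. Changed genes were drawn at random from the tested genes, so these shares are not recovery rates for the 10 genes. A gene that did not pass may still differ, also by more than 2-fold. COL1A1, with an estimate of 3.8-fold, did not pass.

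The deviations of same-numbered libraries from their group means were positively correlated (r = 0.226, 0.159, 0.308 and 0.678 for numbers 1 to 4). Differently numbered libraries reached 0.413 (functional 3 with developing 1), and only number 4, the male library of each group, exceeded this. The labels give no shared animal or date, so whether the numbers mark pairs is not known. The test of each gene and the permutation test of the ratios ignore any pairing. The replicate block is an alternative (for the ratios, a sign-flip test added after seeing the data).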

Additional observations from a re-analysis of the deposited data

Results flagged for a closer look

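BMP1 in functional replicate 4, the male library, stood apart from the other functional libraries at 524 CPM, against 359 to 387 CPM in functional replicates 1 to 3. Its gap to the next library was 0.832 of the range of the group, just past Dixon's critical value for 4 samples. Chance alone passes that value in about 1 of 20 groups, and 20 groups of single genes and 16 groups of ratios were examined. Without this library the log2 fold change of BMP1 was 1.23 (adjusted p = 0.204), against 1.36 with it.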

How the results depend on the processing

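The direction of each of the 10 log2 fold changes was the same in all 16 alternatives run (9 genes higher, TLL1 lower). Of the 10 genes, 7 were called in DESeq2's Wald test and 0 to 2 when 1 library was left out. Among female libraries alone 0 of the 10 were called, and 5 had an unadjusted p under 0.05 in edgeR. The same cut-off took in 1079 genes with functional teeth higher and 1396 with them lower, of 15483 tested in the female libraries. Of all genes, 7585 were called on library totals without TMM (151 higher and 7434 lower, 1.99% higher; the median log2 fold change of all genes was then -0.585, and the median of the 10 genes lay 1.46 above it, against 1.39 with TMM), 1680 in DESeq2 (721 higher and 959 lower, 42.9% higher against 28.4%), 671 with sex as a covariate (246 and 425), 220 with the replicate block (69 and 151), 3 among female libraries (1 and 2), and 8 to 641 when 1 library was left out (lowest without functional replicate 4, highest without developing replicate 2). The replicate block changed no call among the 10 genes. Of the maturation list, 9 were called without TMM (2 higher and 7 lower), 5 in DESeq2 and 0 to 2 with 1 library left out (ADAMTS3 and LOXL1 without developing replicate 1, PDIA3 and LOXL4 without developing replicate 2). On totals without TMM the log2 fold change was 1.42 for COL1A1 and 0.83 for both BMP1 and PCOLCE, and PCOLCE passed. The other changed calls had adjusted p-values, in DESeq2, of 0.0141 for COL1A2, 0.0168 for BMP1 and 0.0163 for LOX. The cause of these changes was not tested. No ratio passed or changed direction in any alternative. The difference of the TLL1 to BMP1 ratio ran from -6.78 to -5.80 with 1 library left out and was -5.28 among female libraries; that of SERPINH1 to collagen ran from -1.504 to -1.03 and was -1.17. Taken as pairs, the ratios had adjusted p-values of 0.2 to 0.5 (added after seeing the data).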
